A study of Mus musculus with 36 samples.

Results

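The change in gene expression between J2WT epiblast-like cells (EpiLCs) and the J2WT embryonic stem cells (ESCs) they were made from is described here, over all genes and in this line only. The members are 6 of the 36 RNA-seq libraries of the series, chosen by their labels: 3 of J2WT EpiLCs and 3 of J2WT ESCs. J2WT is a wild-type mouse ESC line of strain C57BL/6, and the study sets it beside a Jarid2-null line of the same published origin (labelled J2KO) and beside a wild-type line of another origin (PclWT). J2WT EpiLCs had spent 2 days on fibronectin in serum-free NDiff227 medium with 20 ng/mL activin A, 12 ng/mL bFGF and 1% knockout serum replacement. J2WT ESCs were kept on gelatin with 20% fetal bovine serum, LIF, 3 µM of the GSK3 inhibitor CHIRON99021 and 1 µM of the MEK inhibitor PD0325901. Stage and culture medium changed together, so the parts of either in a difference cannot be told apart.

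Naive ESCs correspond to the epiblast before implantation, and LIF with inhibitors of GSK3 and MEK holds them in that state. Withdrawal of those factors and addition of activin A and bFGF moves the cells towards the epiblast just after implantation, the formative state, in which naive transcription factors are lost, the de novo DNA methyltransferases rise and the tissue becomes a polarised epithelium. Polycomb repressive complex 2 (PRC2), the enzyme for H3K27 methylation that the study followed, leaves some promoters and arrives at others on the way.

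The libraries held 16535475 to 17154437 gene counts in J2WT EpiLCs and 15924615 to 16615845 in J2WT ESCs. Of 31248 genes with a count, 13877 reached a mean normalised count of 15 and were tested with edgeR's quasi-likelihood test. A gene was called when its p, adjusted by the Benjamini-Hochberg method, was under 0.05 and its fold change exceeded 2 in either direction, and changes given below as fell by or rose by are on the log2 scale. In J2WT EpiLCs 2111 genes were called higher (15.2% of those tested) and 2081 lower (15%), 30.2% in all, and the median log2 fold change of all genes tested was -0.02. Counts of called genes in the lists and families below are to be read beside these shares, and a count near them says little about its list. Replicates were close, with a biological coefficient of variation of 0.0333, and 11419 genes had an adjusted p under 0.05 at any size and the libraries of the groups did not overlap in 11495 (82.8%). Since nothing in the labels makes the replicates separate cultures, the p-values speak only of library spread and that spread may be technical. Over 8-fold, 595 genes were higher and 411 lower, and over 64-fold, 98 were higher and 65 lower. From under 0.1 RPKM (counts scaled by exon length and by depth) in J2WT ESCs, 154 genes stood over 1 RPKM in J2WT EpiLCs, and 95 genes showed the converse. Mitochondrial genes took 1.03% to 1.28% of counts in J2WT EpiLCs and 1.60% to 1.88% in J2WT ESCs. These shares may be partial, since 6 of 13 listed genes of the mitochondrial genome had no count in any J2WT library.

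Most naive pluripotency genes fell. Of 18 listed genes, all tested, 14 were lower in J2WT EpiLCs, 1 was higher and 3 were not called, with a median log2 fold change of -3.62. Tfcp2l1, a transcription factor of the naive network that acts downstream of LIF and Wnt, stood at 23.8, 23.7 and 24.99 CPM in J2WT EpiLCs, against 1543, 1400 and 1313 CPM in J2WT ESCs (CPM, counts scaled to library size with TMM factors). Its log2 fold change was -5.86 ± 0.06 (SE; adjusted p = 3.4e-29, edgeR). Esrrb, an orphan nuclear receptor held up by GSK3 inhibition, had 69.0, 69.6 and 74.5 CPM in J2WT EpiLCs, against 1063, 1046 and 1012 CPM in J2WT ESCs. Nanog, the homeodomain factor of the naive state, had 56.6, 56.9 and 63.8 CPM in J2WT EpiLCs, against 779, 789 and 809 CPM in J2WT ESCs. In each of these genes the lowest J2WT ESC library lay far above the highest J2WT EpiLC library. Tbx3, a T-box factor, fell to 7.55, 6.37 and 6.76 CPM in J2WT EpiLCs, against 424, 426 and 416 CPM in J2WT ESCs. Spic, an Ets family factor, had no count in any J2WT EpiLC library and 6.16, 6.38 and 6.60 CPM in J2WT ESCs, and was at least 103-fold lower (floor of 3 counts over the group). In bulk RNA, fewer cells expressing a gene and less RNA per cell cannot be told apart. Loss was uneven across the list, since Nr0b1 (Dax1) fell by 1.45 and Klf5 fell by 2.40 on the log2 scale while Klf2 fell by 3.51 and Nr5a2 fell by 3.92. Tet2, a 5-methylcytosine dioxygenase, fell by 2.29. The exceptions were Dppa3 (Stella), a maternal factor that shields methylation in the zygote, which was higher at a log2 fold change of 1.94 although it reached only 3.41, 3.61 and 3.89 CPM in J2WT EpiLCs, and Fgf4, Gbx2 and Pecam1, which were not called (log2 fold changes of 0.31, 0.59 and -0.64).

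Most formative genes rose. Of 25 listed genes, 21 were higher in J2WT EpiLCs, 1 was lower and 3 were not called, with a median log2 fold change of 3.92. The summed level of the list was 6749 to 6892 CPM in J2WT EpiLCs and 1449 to 1470 CPM in J2WT ESCs. Pou3f1 (Oct6), a POU factor of the epiblast after implantation, was at 551, 554 and 566 CPM in J2WT EpiLCs, against 1.31, 1.48 and 1.26 CPM in J2WT ESCs, a log2 fold change of 8.69 ± 0.07 (SE; edgeR adjusted p = 6.8e-31). Otx2, which redirects Oct4 to formative enhancers, had 111, 116 and 122 CPM in J2WT EpiLCs, against 2.18, 1.74 and 2.08 CPM in J2WT ESCs. Dnmt3a, a de novo DNA methyltransferase, had 838, 842 and 830.2 CPM in J2WT EpiLCs, against 36.7, 40.1 and 37.1 CPM in J2WT ESCs. Lef1, the Wnt effector, had 111, 108 and 103 CPM in J2WT EpiLCs, against 3.54, 2.06 and 2.20 CPM in J2WT ESCs. Pou3f1, Otx2 and Lef1 stood under 4 CPM in each J2WT ESC library, and in all 4 genes the groups were far apart. Sox3, of the SoxB1 group, rose by 5.12 on the log2 scale, and the SoxC factors Sox4, Sox11 and Sox12 rose by 3.92, 5.93 and 2.38, while the other SoxB1 factors Sox1 and Sox2 were not called (0.60 and -0.70). The zinc finger factors Zic2 and Zic5 rose by 3.25 and 2.76. Fgf15, an FGF ligand of early embryos, had 24.6, 22.3 and 21.9 CPM in J2WT EpiLCs, against 0.187, 0.258 and 0.189 CPM in J2WT ESCs. Grainyhead-like factors moved in opposite directions. Grhl2, which opens epithelial enhancers, had 142, 141 and 138 CPM in J2WT EpiLCs, against 7.21, 7.99 and 7.23 CPM in J2WT ESCs, whereas Grhl3, of the same family, had 8.09, 7.17 and 7.46 CPM in J2WT EpiLCs, against 34.8, 36.1 and 33.5 CPM in J2WT ESCs. Foxd3, Etv4 and Etv5 were not called (log2 fold changes of 0.42, 0.44 and 0.15).

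**Figure D1:**
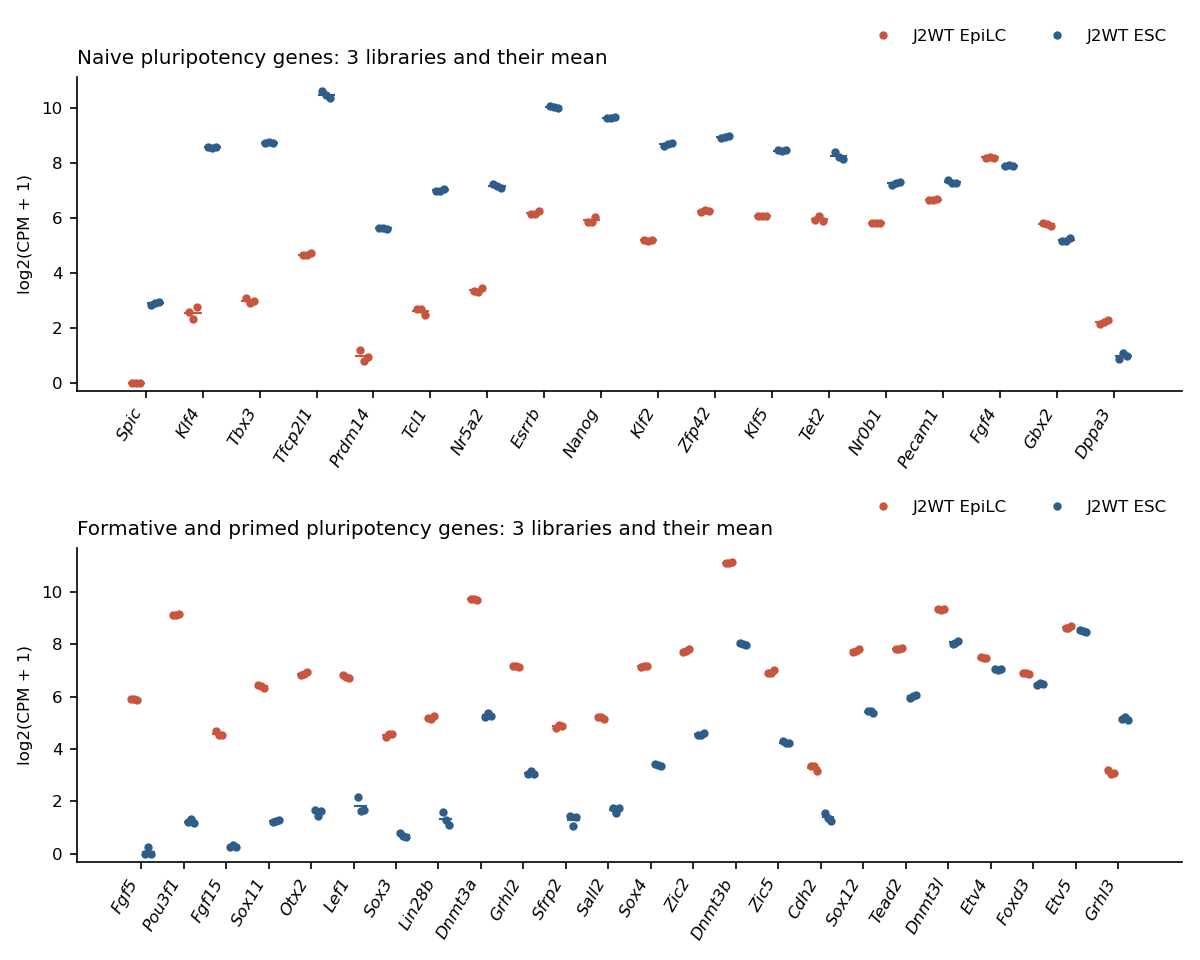
Expression of naive (top) and formative (bottom) genes in each library, as log2(CPM + 1); points are the 3 libraries of J2WT EpiLCs (red, left) and J2WT ESCs (blue, right) and the short lines their means. The libraries of a group lie close together, Spic has no count in J2WT EpiLCs, Dppa3, Gbx2 and Fgf4 lie higher in J2WT EpiLCs than in J2WT ESCs (Gbx2 and Fgf4 not called), against the rest of the naive genes, and Grhl3 against the rest of the formative genes.

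Most factors shared by both states were not called. Of 17 genes of general pluripotency, 6 were higher and 11 were not called. None was called lower by edgeR or by DESeq2. At an adjusted p under 0.05 (edgeR) and any size of change, 11 were higher and 6 lower, the largest decrease at a log2 fold change of -0.92. Pou5f1 (Oct4), the POU factor required in both states, had 732, 736 and 750.0 CPM in J2WT EpiLCs, against 787, 842 and 870.2 CPM in J2WT ESCs (log2 fold change -0.16, not called), and Sox2 had 355, 366 and 363 CPM in J2WT EpiLCs, against 566, 592 and 610.0 CPM in J2WT ESCs (-0.70, not called). The members that rose were Lin28a, an RNA-binding protein that blocks let-7 maturation (3.18), Utf1, a chromatin factor of pluripotent cells (2.85), Myc (2.51), Mycn (1.31), Sall1 (1.72) and Dppa4 (1.01). Utf1 had 679, 680.1 and 713 CPM in J2WT EpiLCs, against 93.8, 95.8 and 99.0 CPM in J2WT ESCs, and Myc had 119, 124 and 119.6 CPM in J2WT EpiLCs, against 22.1, 20.8 and 21.3 CPM in J2WT ESCs. Dppa4 lay at the call threshold and lost its call without J2WT EpiLC replicate 1, J2WT EpiLC replicate 3 or J2WT ESC replicate 2 (0.98, 1.00 and 0.98).

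The signalling pathways that the media address are taken next. LIF binds the Lifr and gp130 (Il6st) receptors, JAK kinases phosphorylate STAT3, and STAT3 induces Socs3, the feedback inhibitor of the receptor. Of 14 genes, 13 were tested, of which 6 were lower, 1 was higher and 6 were not called (median -0.98). Socs3 had 5.54, 4.96 and 6.57 CPM in J2WT EpiLCs, against 158, 164 and 168 CPM in J2WT ESCs, a log2 fold change of -4.84 ± 0.07 (SE; edgeR adjusted p = 1.8e-26). Bcl3, an atypical IκB protein and STAT3 target, had 2.37, 2.21 and 2.55 CPM in J2WT EpiLCs, against 85.3, 85.8 and 85.2 CPM in J2WT ESCs. Of the pathway's own components, Stat3 was lower at 30.8 ± 3.08 CPM in J2WT EpiLCs, against 156 ± 5.68 CPM in J2WT ESCs (SD, n = 3 each), and Il6st and Lifr were lower with log2 fold changes of -1.77 and -1.05. Lifr lost its call under upper-quartile scaling (-0.94). The kinase genes Jak1 and Jak2 were not called (-0.82 and -0.57). Socs1, a related inhibitor, was the member called higher, at 9.41 ± 0.875 CPM in J2WT EpiLCs, against 2.23 ± 0.217 CPM in J2WT ESCs.

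FGF receptors act through MEK and ERK, whose targets include immediate early genes, the Ets factors Etv4 and Etv5 and feedback inhibitors of the Sprouty and Dusp families. Of 28 genes, 26 were tested, of which 11 were higher, 2 lower and 13 not called. Dusp4, a phosphatase of nuclear ERK, had 245, 249 and 238 CPM in J2WT EpiLCs, against 1.37, 1.22 and 0.818 CPM in J2WT ESCs, a log2 fold change of 7.75 ± 0.08 (SE; edgeR adjusted p = 9.3e-29). Dusp6, the cytoplasmic ERK phosphatase, had 202, 192 and 199.96 CPM in J2WT EpiLCs, against 36.9, 33.8 and 33.2 CPM in J2WT ESCs, and Dusp5 rose by 2.82. Egr1, an immediate early zinc finger factor, had 38.4, 39.7 and 35.6 CPM in J2WT EpiLCs, against 0.249, 0.451 and 0.252 CPM in J2WT ESCs. Every J2WT EpiLC library exceeded every J2WT ESC library in these genes. The other ERK targets Fos, Etv1, Etv4 and Etv5 were not called, with log2 fold changes of 0.23, -0.12, 0.44 and 0.15. Within the Sprouty family, which dampens receptor signalling, Spry1 and Spry4 rose by 1.46 and 1.56 whereas Spry2 fell by 1.45. Of the receptors, Fgfr2 was higher (9.31, 9.31 and 9.05 CPM in J2WT EpiLCs, against 1.93, 2.32 and 1.82 CPM in J2WT ESCs) and Fgfr1 was not called (-0.08).

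Inhibition of GSK3 stabilises β-catenin, so CHIRON99021 drives Wnt target genes in ESC medium. Of 32 genes of the pathway 28 were tested, of which 11 were lower, 11 higher and 6 not called. Sp5, a zinc finger factor and direct β-catenin target, had 2 counts over the 3 J2WT EpiLC libraries and 67.2, 65.9 and 64.9 CPM in the J2WT ESC libraries, and its ratio of J2WT ESCs over J2WT EpiLCs at equal depth was 1599 (95% interval 442 to 13206), an interval of counting error only. Sp5 was the gene with the largest fitted decrease in the comparison. Cdx1, a caudal homeobox gene and β-catenin target, fell to 0.304, 0.123 and 0.255 CPM in J2WT EpiLCs, against 149.97, 161 and 162 CPM in J2WT ESCs. Axin2, the feedback scaffold of the destruction complex, had 23.8, 22.5 and 23.8 CPM in J2WT EpiLCs, against 97.7, 93.4 and 91.5 CPM in J2WT ESCs, and the secreted inhibitors Notum and Dkk1 were lower with log2 fold changes of -1.74 and -1.78. The transcript of β-catenin itself, Ctnnb1, was not called (-0.27). Effectors and receptors moved in both directions. Lef1 and Tcf7 rose by 5.37 and 1.01 (Tcf7 lost its call without J2WT EpiLC replicate 2 or 3 or J2WT ESC replicate 3, at 1.00, 1.00 and 0.98) while Tcf7l2 fell by 1.26, and Tcf7l1, the repressor of the family, was not called (-0.18). Among the Frizzled receptors Fzd1, Fzd2, Fzd6 and Fzd7 rose by 1.80, 2.38, 2.59 and 2.30, while Fzd5 and Fzd10 fell to 32.2, 34.9 and 35.6 CPM and 6.21, 5.76 and 6.89 CPM in J2WT EpiLCs, against 229.9, 218 and 206 CPM and 79.8, 74.2 and 76.7 CPM in J2WT ESCs.

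The promoter of Sp5 is shown because its transcript had the largest fitted decrease and is a target of the pathway named above. It spans 250 bases before to 50 after the start (RefSeq, GRCm38.p6, chr2:70474673-70474972, plus strand); capitals mark a match to the TCF and LEF motif CTTTGAT, searched on both strands (reverse complement ATCAAAG).
Sp5: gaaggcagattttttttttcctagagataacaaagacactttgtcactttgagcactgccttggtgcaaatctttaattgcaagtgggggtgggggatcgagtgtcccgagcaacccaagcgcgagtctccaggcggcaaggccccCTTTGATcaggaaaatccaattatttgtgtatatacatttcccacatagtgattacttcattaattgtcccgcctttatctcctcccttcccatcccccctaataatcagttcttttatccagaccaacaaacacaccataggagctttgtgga
The motif was present in the promoters of 3 of the 18 tested pathway members with an entry (Sp5, Wnt5b and Tnfrsf19), against 3.73% of all 32851 promoter entries and 2.97% of tested genes with an entry. A match of letters describes the window and is no measurement of binding.

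Nodal and activin signal through SMAD2 and SMAD3, and EpiLC medium supplies activin A. Of 18 genes tested, 4 were higher, 4 lower and 10 not called, beside 15.2% higher and 15% lower over all genes tested. Lefty1, the secreted Nodal antagonist and SMAD target, had 110.1, 105 and 107 CPM in J2WT EpiLCs, against 7.34, 6.05 and 7.61 CPM in J2WT ESCs, while its neighbour Lefty2 was not called (0.33). Skil (SnoN), a transcriptional corepressor of the SMADs, rose by 3.43. Lower were the proprotein convertases Furin and Pcsk6, which cleave the Nodal precursor (log2 fold changes of -1.31 and -2.24), the receptor Acvr1b (-1.20) and Pmepa1, an inhibitor of SMAD signalling (-2.23). The ligand Nodal was not called (59.6, 56.9 and 60.5 CPM in J2WT EpiLCs, against 83.4, 83.1 and 88.1 CPM in J2WT ESCs).

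BMP ligands induce Id genes, inhibitors of basic helix-loop-helix factors, and serum is a source of BMP activity. Of 18 genes tested, 6 were lower, 2 higher and 10 not called. Id1 had 2.01, 1.65 and 1.85 CPM in J2WT EpiLCs, against 11.8, 14.0 and 14.3 CPM in J2WT ESCs, Id3 had 1.70, 2.76 and 1.98 CPM in J2WT EpiLCs, against 11.2, 11.9 and 12.2 CPM in J2WT ESCs, and Id4 had a log2 fold change of -4.003 and was lower, while Id2 was not called (-0.93). The ligands Bmp4 and Bmp7 were lower, with Bmp4 at 4.99, 5.33 and 4.85 CPM in J2WT EpiLCs, against 32.8, 31.3 and 31.8 CPM in J2WT ESCs and Bmp7 at 0.669, 0.429 and 0.829 CPM in J2WT EpiLCs, against 14.1, 10.6 and 12.5 CPM in J2WT ESCs. The receptors and receptor SMADs tested were not called: Bmpr1a, Bmpr2, Acvr1, Smad1, Smad5 and Smad9 lay between -0.29 and 0.53. Msx1 and Msx2, homeobox targets of BMP, moved in opposite directions, with log2 fold changes of 2.50 and -5.89.

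In the Notch pathway, whose membrane ligands on a cell activate receptors on its neighbour, 6 of 15 genes tested were higher, 2 lower and 7 not called. The ligand Dll1 had 856 counts over the J2WT EpiLC libraries and 1 over the J2WT ESC libraries, a ratio of 839.6 (95% interval 150.3 to 33200) by counting error. Jag2 and Dll3 rose by 1.79 and 1.44, the receptor Notch3 by 1.62, and the glycosyltransferases Lfng and Mfng, which tune the choice of ligand, by 3.40 and 2.95. The effector Hes1 ran the other way at 8.52, 6.74 and 9.88 CPM in J2WT EpiLCs, against 66.7, 73.3 and 77.2 CPM in J2WT ESCs, and Notch4 fell to 5.23, 4.84 and 5.04 CPM in J2WT EpiLCs, against 20.6, 19.96 and 21.9 CPM in J2WT ESCs.

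Among writers and erasers of DNA methylation, 5 of 15 genes were higher, 3 lower and 7 not called. Dnmt3a rose by 4.47 and its catalytically inactive partner Dnmt3l by 1.28, whereas the maintenance enzyme Dnmt1 and its cofactor Uhrf1 were not called (0.25 and 0.14). The TET dioxygenases split. Tet2 had 59.1, 66.5 and 57.9 CPM in J2WT EpiLCs, against 338, 292 and 278 CPM in J2WT ESCs, while Tet1 and Tet3 were not called (0.40 and 0.83). Tdg, the glycosylase that removes oxidised methylcytosine, had 52.5, 53.9 and 54.4 CPM in J2WT EpiLCs, against 17.97, 18.9 and 17.2 CPM in J2WT ESCs, and Zfp57, the zinc finger protein that keeps methylation at imprints, had 161, 165 and 166 CPM in J2WT EpiLCs, against 501, 498 and 498 CPM in J2WT ESCs.

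Some genes of the Polycomb complexes were called, as were 30.2% of all genes tested (15.2% higher and 15% lower). Of 6 core PRC2 genes 1 was lower and 5 were not called. Eed, the subunit that reads H3K27me3, had 147, 145 and 143 CPM in J2WT EpiLCs, against 307, 314 and 318 CPM in J2WT ESCs, Suz12 had 324, 331 and 336 CPM in J2WT EpiLCs, against 642, 604 and 605 CPM in J2WT ESCs (-0.89, not called) and Ezh2, the methyltransferase, had 260.4, 247 and 261 CPM in J2WT EpiLCs, against 211, 213 and 212 CPM in J2WT ESCs (0.28, not called). Eed lost its call under upper-quartile scaling (log2 fold change -0.99). Of 9 accessory genes, 2 were higher, 2 lower and 5 not called. The Polycomb-like paralogs of PRC2.1 differed: Phf1 had 5.84, 5.76 and 4.65 CPM in J2WT EpiLCs, against 18.1, 16.04 and 18.4 CPM in J2WT ESCs, Mtf2 had 368, 359.5 and 366 CPM in J2WT EpiLCs, against 576, 584 and 586 CPM in J2WT ESCs, and Phf19 had 8.21, 7.84 and 9.44 CPM in J2WT EpiLCs, against 2.42, 3.61 and 2.39 CPM in J2WT ESCs. Phf1 was lower, Phf19 higher and Mtf2 not called (-0.67). Epop, of PRC2.1, fell by 1.06 (-0.95 under upper-quartile scaling, not called), and Jarid2, which defines PRC2.2, was not called at 766, 773 and 765 CPM in J2WT EpiLCs, against 466, 459 and 443 CPM in J2WT ESCs. Of 28 PRC1 genes, 3 were higher, 5 lower and 20 not called. The chromodomain subunits of canonical PRC1 did not move as a set: Cbx8 was lower (-1.63), while Cbx2 and Cbx7 were not called (0.87 and -0.13). Cbx7 had 241, 250.2 and 249 CPM in J2WT EpiLCs, against 272, 273 and 270.5 CPM in J2WT ESCs. Phc1, a polyhomeotic subunit, had 772, 813 and 837 CPM in J2WT EpiLCs, against 419, 390.0 and 389 CPM in J2WT ESCs, and lost its call without J2WT EpiLC replicate 3 (0.99). Phc2 fell by 1.07 (-0.96 under upper-quartile scaling, not called).

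Genes at promoters where PRC2 arrived or left were called in large shares. The study sorted SUZ12-bound promoters by their change in SUZ12 between ESCs and EpiLCs of J2WT and PclWT. The classes thus come from chromatin and not from RNA, though from the same lines as are compared here. Genes near sites of different classes were left out. The study itself reported higher expression in EpiLCs for its displaced class and lower expression for its recruited class. Of 503 genes with a transcription start within 2000 bp of a recruited site, 362 were tested, of which 275 (76.0%) were lower in J2WT EpiLCs, 4 were higher and 83 were not called, with a median log2 fold change of -1.88. Of 96 genes near displaced sites, 77 were tested, of which 68 (88.3%) were higher and 9 were not called, with a median of 3.73. None was called lower by edgeR or DESeq2, and 1 was lower at an unadjusted p under 0.05 in edgeR. Over all genes tested 15% were lower and 15.2% higher. Among the largest decreases near recruited sites, beside Sp5 and Cdx1, were those of Tlx2, a homeobox gene at 0.0608, 0.0613 and 0 CPM in J2WT EpiLCs, against 39.6, 40.1 and 40.1 CPM in J2WT ESCs, Aqp3, an aquaglyceroporin at 0.852, 0.306 and 0.574 CPM in J2WT EpiLCs, against 376, 372 and 384 CPM in J2WT ESCs, and Edn1, the endothelin ligand, which had no count in J2WT EpiLCs and 2.98, 2.64 and 2.52 CPM in J2WT ESCs. Among the genes near recruited sites called higher, Ndrg1, a stress-responsive gene, had 23.9, 26.9 and 29.2 CPM in J2WT EpiLCs, against 8.02, 8.56 and 8.74 CPM in J2WT ESCs, and Hsf4, a heat shock factor, and Nsmaf had log2 fold changes of 1.32 and 1.08 (Nsmaf at 0.93 in strand column 4, not called). Near displaced sites the largest increases were in Bcl11a, Tmem54, Vrtn, Dll1 and Cthrc1. Bcl11a, a zinc finger repressor, had 32.6, 32.6 and 33.3 CPM in J2WT EpiLCs and no count in J2WT ESCs, at least 519.5-fold higher. Vrtn had 131, 123 and 125 CPM in J2WT EpiLCs, against 6 counts over the J2WT ESC libraries.

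**Figure D2:**
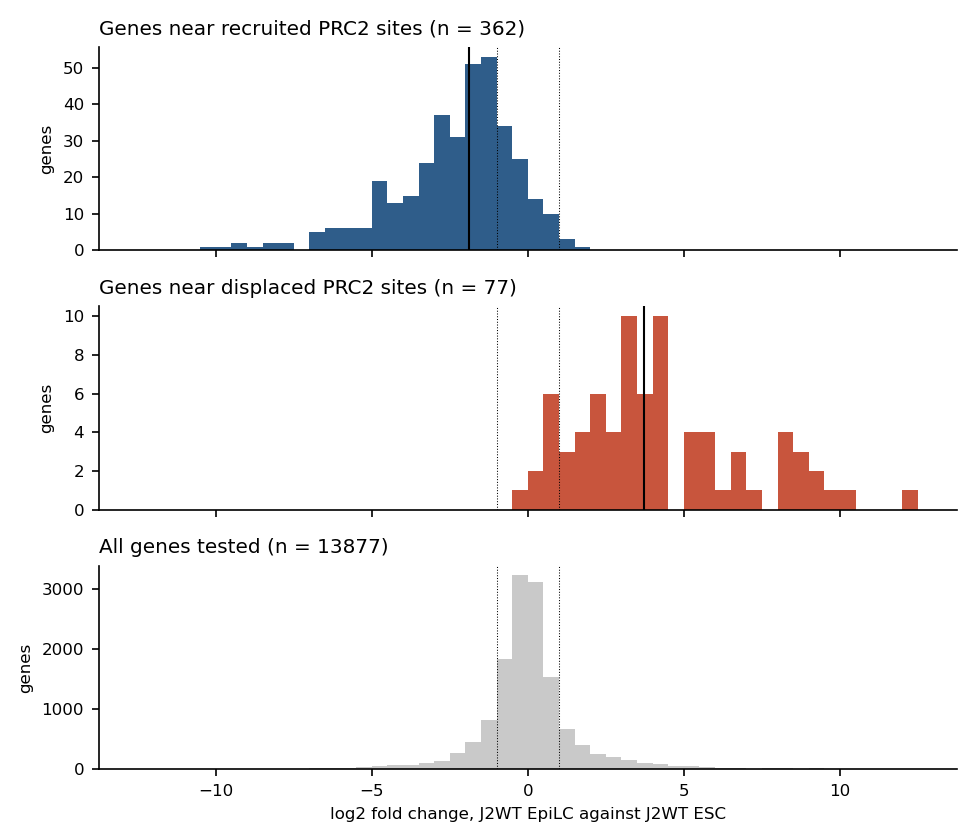
Distribution of log2 fold changes (J2WT EpiLC against J2WT ESC, x axis) over genes (y axis) with a transcription start within 2000 bp of recruited sites (top), displaced sites (middle) and over all 13877 genes tested (bottom); solid lines are class medians and dotted lines mark a log2 fold change of 1 in either direction. Genes near recruited sites centre at -1.88 and genes near displaced sites at 3.73, while all genes centre near 0.

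Hox genes, the collinear homeobox clusters and textbook Polycomb targets, were low in both stages, and 11 of 39 passed the filter on low counts. Among these 10 were lower in J2WT EpiLCs and 1 was higher, beside 15% lower and 15.2% higher over all genes tested. The filter takes the mean over both groups, so a member can pass it through the group where it is high. The count of directions is therefore a description of the members that passed. The HoxC cluster held the largest decreases: Hoxc12 had 1 count over the J2WT EpiLC libraries and 292 over the J2WT ESC libraries, a ratio of 298 (95% interval 53.02 to 11799) for J2WT ESCs over J2WT EpiLCs, Hoxc4 fell to 0.0608, 0.123 and 0.0638 CPM in J2WT EpiLCs, against 4.91, 3.03 and 3.52 CPM in J2WT ESCs, and Hoxc10 and Hoxc13 had log2 fold changes of -4.99 and -4.04. Hoxd13, at the end of the HoxD cluster, was the member called higher, at 2.07, 3.31 and 2.55 CPM in J2WT EpiLCs, against 0.870, 0.966 and 1.01 CPM in J2WT ESCs.

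Most of the listed epithelial genes were higher in J2WT EpiLCs, while E-cadherin was not called. Of 22 genes tested, 14 were higher, 3 lower and 5 not called (median 2.25). Esrp1, the splicing regulator that sets epithelial isoforms, had 115, 119 and 119 CPM in J2WT EpiLCs, against 0.311, 0.386 and 0.0629 CPM in J2WT ESCs, a log2 fold change of 8.83 ± 0.12 (SE; edgeR adjusted p = 1.4e-26), while its paralog Esrp2 fell by 1.58. In the first of the stranded count columns (column 3) Esrp2 was at -0.77 and not called. Cldn6, a claudin of tight junctions, had 52.1, 48.2 and 52.9 CPM in J2WT EpiLCs, against 1.68, 1.74 and 1.76 CPM in J2WT ESCs. Cldn7, of the same family, had 22.0, 24.4 and 23.8 CPM in J2WT EpiLCs, against 0.995, 0.773 and 0.818 CPM in J2WT ESCs. Epcam, a surface adhesion molecule, had 311, 305 and 314 CPM in J2WT EpiLCs, against 28.7, 32.1 and 29.5 CPM in J2WT ESCs. The keratins Krt18 and Krt8, which pair in simple epithelia, moved in opposite directions at 3.02 and -1.24. Cdh1 (E-cadherin) had 707, 706 and 718 CPM in J2WT EpiLCs, against 538, 529 and 506 CPM in J2WT ESCs. Of 6 mesenchymal genes tested, 3 were lower (Snai1 at 2.19, 1.65 and 1.15 CPM in J2WT EpiLCs, against 15.4, 17.5 and 16.04 CPM in J2WT ESCs, Zeb1 with a log2 fold change of -3.06 and Vim with -1.05, which upper-quartile scaling took to -0.94 and out of the calls), 2 were not called and N-cadherin, Cdh2, was higher at 9.19, 9.07 and 7.84 CPM in J2WT EpiLCs, against 1.93, 1.61 and 1.38 CPM in J2WT ESCs. Of 16 apical polarity genes, 2 were higher (Podxl, the podocalyxin that coats the lumen, by 1.89, and Patj by 1.65), 2 lower and 12 not called. The shares over all genes tested were 15.2% higher and 15% lower.

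Extracellular matrix and integrin genes mostly fell or were not called: 11 of 22 were lower, 2 higher and 9 not called (median -1.07). At an adjusted p under 0.05 (edgeR) and any size of change, 16 were lower and 6 higher. Laminin chains moved in both directions. Lama1 and Lamb2 had log2 fold changes of -4.002 and -2.34, and Lamb1 had 104, 103 and 108 CPM in J2WT EpiLCs, against 6.72, 6.89 and 8.05 CPM in J2WT ESCs. Nid1, which links laminin to collagen IV in basement membranes, had 20.3, 22.2 and 21.8 CPM in J2WT EpiLCs, against 612, 572 and 541 CPM in J2WT ESCs, and Fn1 (fibronectin) had 544, 599 and 549 CPM in J2WT EpiLCs, against 2235, 1886 and 1860 CPM in J2WT ESCs. J2WT EpiLCs grew on added fibronectin and J2WT ESCs on gelatin, and the part of the substrate in these values was not tested. Among integrins Itga3 rose by 1.18, Itgb3, Itga7 and Itgav fell with log2 fold changes of -2.01, -1.42 and -1.18, and Itgb1, the common β chain, was not called (0.26).

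Most cholesterol synthesis genes rose. When sterols are short, SREBP2 enters the nucleus and raises the enzymes of the mevalonate pathway. Of 24 genes, 17 were higher in J2WT EpiLCs, 1 was lower and 6 were not called (median 1.41). Dhcr7, the last reductase of the pathway, had 158, 159 and 165 CPM in J2WT EpiLCs, against 26.1, 27.2 and 27.8 CPM in J2WT ESCs, a log2 fold change of 2.58 ± 0.05 (SE; edgeR adjusted p = 2.8e-24). Insig1, the sterol-sensing retention protein of the pathway, had 276, 290.0 and 294 CPM in J2WT EpiLCs, against 66.8, 64.8 and 67.4 CPM in J2WT ESCs. Every library of J2WT EpiLCs exceeded every library of J2WT ESCs in both genes. Lss, Cyp51, Fdps, Stard4, Mvd, Msmo1, Hsd17b7, Idi1, Hmgcs1, Fdft1 and Sqle rose by between 1.14 and 2.09. Srebf2 itself was not called (0.70). Ebp, a sterol isomerase, was the exception at 12.2, 12.3 and 12.6 CPM in J2WT EpiLCs, against 45.3, 47.8 and 47.4 CPM in J2WT ESCs. The fatty acid genes Scd2 (stearoyl-CoA desaturase) and Fasn (fatty acid synthase) were among the called genes with the highest CPM, at 1639, 1657 and 1684 CPM in J2WT EpiLCs, against 845, 833 and 809 CPM in J2WT ESCs for Scd2 and 1475, 1583 and 1466 CPM in J2WT EpiLCs, against 738, 688 and 681 CPM in J2WT ESCs for Fasn. Scd2 lay close to the threshold (log2 fold change 1.01, and 0.99 without J2WT EpiLC replicate 3 or J2WT ESC replicate 3). ESC medium held serum, a source of lipoprotein, and its part in these values cannot be told apart from that of stage.

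Glycolytic genes moved in both directions. Of 23 tested, 7 were higher, 3 lower and 13 not called (median 0.73). The lactate exporter Slc16a3 (MCT4) had 509, 506 and 495 CPM in J2WT EpiLCs, against 22.8, 25.3 and 21.4 CPM in J2WT ESCs, a log2 fold change of 4.45 ± 0.05 (SE; edgeR adjusted p = 1.8e-28). Ldha, which makes lactate from pyruvate, had 1376, 1333 and 1321 CPM in J2WT EpiLCs, against 487, 505 and 518 CPM in J2WT ESCs, and Pdk1, which closes the entry of pyruvate into mitochondria by inhibiting pyruvate dehydrogenase, had 353, 366 and 362 CPM in J2WT EpiLCs, against 77.2, 74.5 and 75.7 CPM in J2WT ESCs. In all 3 genes the lowest J2WT EpiLC library exceeded the highest J2WT ESC library. Slc2a3 (GLUT3), the high-affinity glucose carrier, ran the other way at 336, 332 and 357 CPM in J2WT EpiLCs, against 1676, 1658 and 1613 CPM in J2WT ESCs, while Slc2a1 (GLUT1) was not called (0.86). Hk1 fell by 1.75 and Eno2 fell by 1.52, whereas Aldoc, Eno3 and Pfkm rose by 1.11, 1.46 and 1.01 (Pfkm lost its call without J2WT EpiLC replicate 3, at 0.99). Gapdh was not called (-0.06). Of 27 nuclear genes of the respiratory chain 26 were not called and Cox7a1, a tissue-specific oxidase subunit, fell by 1.32. Of the 7 mitochondrial genes tested, mt-Co1 and mt-Nd6 were lower (-1.03 and -1.02), calls removed by upper-quartile scaling (-0.92 and -0.91) and by leaving out J2WT EpiLC replicate 3 (-0.96 for each), for mt-Co1 also by leaving out J2WT ESC replicate 1 (-0.99) and for mt-Nd6 J2WT ESC replicate 3 (-0.94). The other 5 were not called, and 6 more had no count in any of these libraries.

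**Figure D3:**
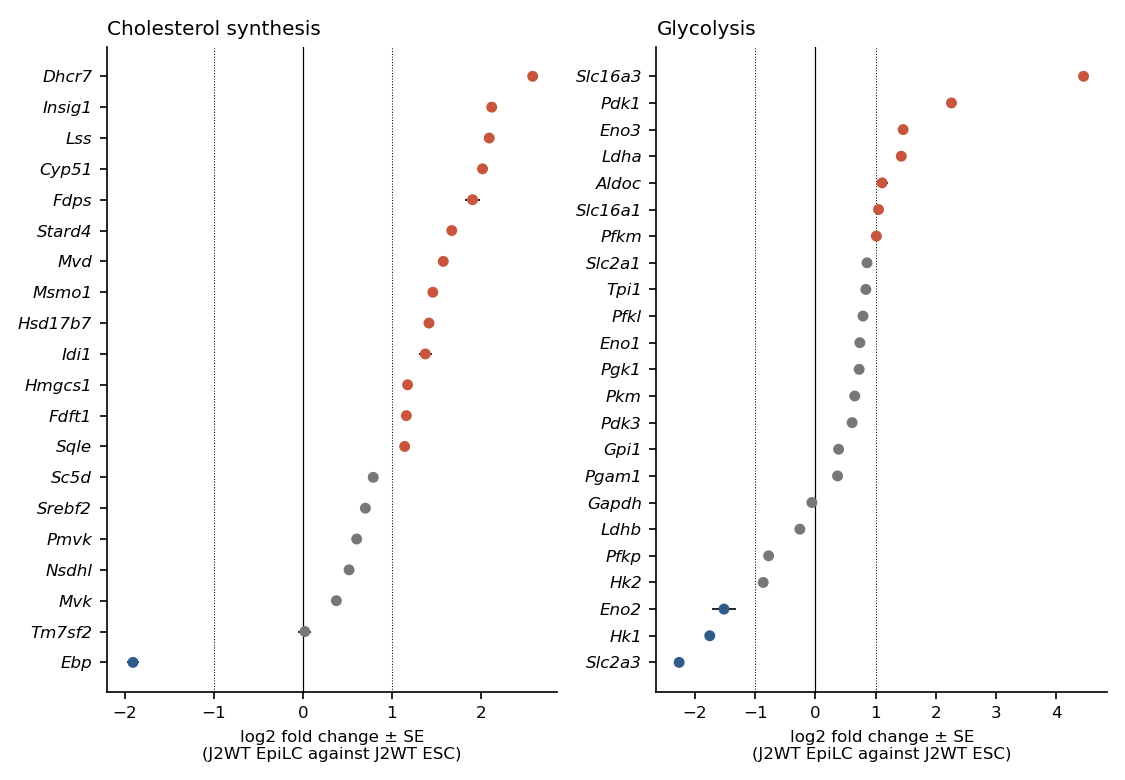
Log2 fold changes (x axis, J2WT EpiLC against J2WT ESC, bars are SE) of tested cholesterol synthesis (left) and glycolysis (right) genes; red points were called higher, blue lower and grey not called, and dotted lines mark 1 in either direction. Cholesterol genes lie to the right with Ebp as the exception, and glycolytic genes spread to both sides with Slc16a3 at 4.45.

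Promoters of genes that rose in these lists are shown to let the shared letters be seen. Each spans 250 bases before to 50 after the start in RefSeq GRCm38.p6, read along the gene. In the first set, Hmgcs1 (HMG-CoA synthase, chr13:119690101-119690400, plus strand), Insig1 (chr5:28071162-28071461, plus strand) and Cyp51 (lanosterol demethylase, chr5:4104648-4104947, minus strand), capitals mark the CCAAT box, searched as CCAAT and ATTGG.
Hmgcs1: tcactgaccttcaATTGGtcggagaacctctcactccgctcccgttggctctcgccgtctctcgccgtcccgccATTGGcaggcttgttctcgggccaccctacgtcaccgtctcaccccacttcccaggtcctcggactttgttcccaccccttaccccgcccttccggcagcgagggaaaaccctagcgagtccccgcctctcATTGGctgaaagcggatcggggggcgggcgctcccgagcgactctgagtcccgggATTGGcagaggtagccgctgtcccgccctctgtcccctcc
Insig1: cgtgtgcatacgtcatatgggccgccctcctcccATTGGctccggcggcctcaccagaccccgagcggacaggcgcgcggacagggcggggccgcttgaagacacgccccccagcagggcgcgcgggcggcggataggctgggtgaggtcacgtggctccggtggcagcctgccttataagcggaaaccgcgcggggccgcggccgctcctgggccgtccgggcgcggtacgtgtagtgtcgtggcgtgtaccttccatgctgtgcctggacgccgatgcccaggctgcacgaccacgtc
Cyp51: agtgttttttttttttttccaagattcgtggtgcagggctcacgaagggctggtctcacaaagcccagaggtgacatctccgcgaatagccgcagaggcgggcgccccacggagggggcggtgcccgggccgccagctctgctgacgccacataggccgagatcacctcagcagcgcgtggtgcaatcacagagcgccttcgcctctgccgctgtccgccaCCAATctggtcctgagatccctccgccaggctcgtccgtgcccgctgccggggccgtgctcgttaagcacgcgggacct
The CCAAT box, the site of NF-Y, which works beside SREBP at sterol genes, was present in all 16 cholesterol members that had a promoter entry, of 24 tested, against 37.4% of all promoter entries and 43.5% of the 10333 tested genes with an entry. A gene was counted when any of its entries held the letters, and Dhcr7 held them in only some of its entries. In the second set, Slc16a3 (chr11:120948817-120949116, plus strand) and Ldha (chr7:46845554-46845853, plus strand), capitals mark the core of the hypoxia response element, searched as ACGTG and CACGT, letters that also lie within the E-box CACGTG.
Slc16a3: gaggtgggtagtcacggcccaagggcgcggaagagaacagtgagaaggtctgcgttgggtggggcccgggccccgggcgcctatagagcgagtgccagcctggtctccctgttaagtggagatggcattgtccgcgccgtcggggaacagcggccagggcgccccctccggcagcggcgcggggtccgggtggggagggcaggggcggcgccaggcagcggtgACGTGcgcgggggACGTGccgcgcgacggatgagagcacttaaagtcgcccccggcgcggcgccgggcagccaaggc
Ldha: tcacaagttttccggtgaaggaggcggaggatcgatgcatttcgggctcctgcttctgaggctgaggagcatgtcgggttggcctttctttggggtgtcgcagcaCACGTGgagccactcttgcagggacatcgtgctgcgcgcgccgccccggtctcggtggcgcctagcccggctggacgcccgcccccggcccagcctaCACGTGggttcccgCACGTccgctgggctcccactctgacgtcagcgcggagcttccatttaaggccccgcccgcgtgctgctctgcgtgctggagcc
It was present in 13 of 22 glycolytic members with an entry, against 19.6% of all promoter entries and 29.3% of tested genes with an entry, counted in the same way. A further entry of Ldha held no match. The STAT motif TTCCNGGAA, which reads the same on both strands, was present in 0 of the 13 LIF and STAT3 pathway members with an entry, against 1.15% of all promoter entries and 1.51% of tested genes with an entry, which says only that these letters were not in those windows.

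Genes of serine, glycine and one-carbon metabolism were called at a share close to that of all genes tested (15.2% higher and 15% lower): of 13, 2 were higher, 2 lower and 9 not called. Tdh, threonine dehydrogenase, on which mouse ESCs depend for glycine and one-carbon units, had 19.8, 18.6 and 19.3 CPM in J2WT EpiLCs, against 369, 383 and 389 CPM in J2WT ESCs. The other lower gene, Aldh1l2, a mitochondrial folate enzyme, fell by 1.35. Gldc, the glycine decarboxylase, and Phgdh, the entry of serine synthesis, rose by 1.14 and 1.11. Of 11 genes of the integrated stress response, 3 were higher, 1 lower and 7 not called. They moved in both directions: the cystine carrier Slc7a11 had 32.9, 34.6 and 35.3 CPM in J2WT EpiLCs, against 5.29, 4.83 and 4.72 CPM in J2WT ESCs while Asns, asparagine synthetase, had 390.4, 398 and 432 CPM in J2WT EpiLCs, against 1204, 1250 and 1229 CPM in J2WT ESCs, and Atf4 was not called (-0.08). Of 15 p53 targets, 3 were higher, 3 lower and 9 not called, with the inhibitor Cdkn1a (p21) at 38.7, 41.1 and 40.1 CPM in J2WT EpiLCs, against 149, 156 and 155 CPM in J2WT ESCs and the apoptotic gene Pmaip1 (Noxa) at 148, 148 and 149 CPM in J2WT EpiLCs, against 13.1, 15.2 and 11.3 CPM in J2WT ESCs. The counts of the stress response and p53 lists stand beside the same shares over all genes, 15.2% higher and 15% lower.

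In the G1 cell cycle list, 7 of 20 genes were higher, 3 lower and 10 not called. D-type cyclins moved in both directions. Ccnd2 had 8.64, 9.19 and 10.6 CPM in J2WT EpiLCs, against 0.0622, 0.129 and 0.0629 CPM in J2WT ESCs, whereas Ccnd3 fell by 1.27 and Ccnd1 was not called (0.51). Their partner kinase Cdk6 fell by 1.72, Cdk4 was not called (0.21), and Cdkn1c (p57), an inhibitor, rose by 5.48. Lin28b, the paralog of Lin28a, had 35.4, 34.6 and 36.8 CPM in J2WT EpiLCs, against 1.99, 1.42 and 1.13 CPM in J2WT ESCs. Hmga1 and Hmga2, architectural proteins of chromatin, moved apart (1.24 and -1.73), and the 3 Igf2bp genes were not called.

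In the retinoid pathway, where retinoic acid binds RAR and RXR receptors, 6 of 13 genes were higher, 3 lower and 4 not called. The receptor Rarg had 408, 409 and 432 CPM in J2WT EpiLCs, against 73.5, 71.4 and 71.6 CPM in J2WT ESCs, and Rara rose by 1.62. Rxrg had 428 counts over the J2WT EpiLC libraries and 1 over the J2WT ESC libraries, a ratio of 419.8 (95% interval 74.9 to 16619), while Rxra fell by 1.04 (-0.93 under upper-quartile scaling, not called). Crabp2, which carries retinoic acid to the nucleus, and Stra6, the retinol transporter, rose by 4.48 and 4.45. The synthetic enzyme Aldh1a3 ran the other way, with 1 count in J2WT EpiLCs and 90 in J2WT ESCs.

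Of 24 imprinted genes tested, 10 were higher, 2 lower and 12 not called. Plagl1 (Zac1), a zinc finger factor of the imprinted network, fell most, to 3.29, 1.78 and 2.30 CPM in J2WT EpiLCs, against 527, 497 and 497 CPM in J2WT ESCs. H19, a non-coding RNA, had 55.4, 53.9 and 54.8 CPM in J2WT EpiLCs, against 4.35, 5.09 and 3.65 CPM in J2WT ESCs, Mest had 203, 205 and 201 CPM in J2WT EpiLCs, against 50.4, 49.0 and 46.2 CPM in J2WT ESCs, and Snrpn, Dlk1 and Magel2 rose by 2.23, 2.61 and 5.05. Within the Dlk1 and Dio3 domain Dlk1 rose, Dio3 fell by 2.72 and the non-coding Meg3, Rian and Mirg were not called (-0.13, 0.08 and -0.12). Of 20 germline genes, 10 were higher, 3 lower and 7 not called. Mael, of the piRNA pathway, had 38.9, 39.1 and 42.5 CPM in J2WT EpiLCs, against 2.74, 2.38 and 3.65 CPM in J2WT ESCs, Tdrd1, a Tudor protein of the same pathway, had 3.89, 4.90 and 4.34 CPM in J2WT EpiLCs, against 0.249, 0.0644 and 0.189 CPM in J2WT ESCs, and Sycp2 and Sycp3, of the synaptonemal complex, rose by 4.04 and 2.15. Nanos3, a regulator of primordial germ cells, fell by 2.60. Of 8 genes of the X inactivation centre and the Y chromosome 4 were higher and 4 not called. The Y-linked members Uty, Kdm5d, Eif2s3y and Ddx3y were all among those tested, so J2WT libraries held Y transcripts. Inactivation of an X was not tested. Xist, the RNA that coats an inactive X, had 47.1, 55.9 and 41.6 CPM in J2WT EpiLCs, against 6.90, 6.05 and 6.60 CPM in J2WT ESCs, and Tsix overlaps it, so that without strand their reads cannot be separated.

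**Figure D4:**
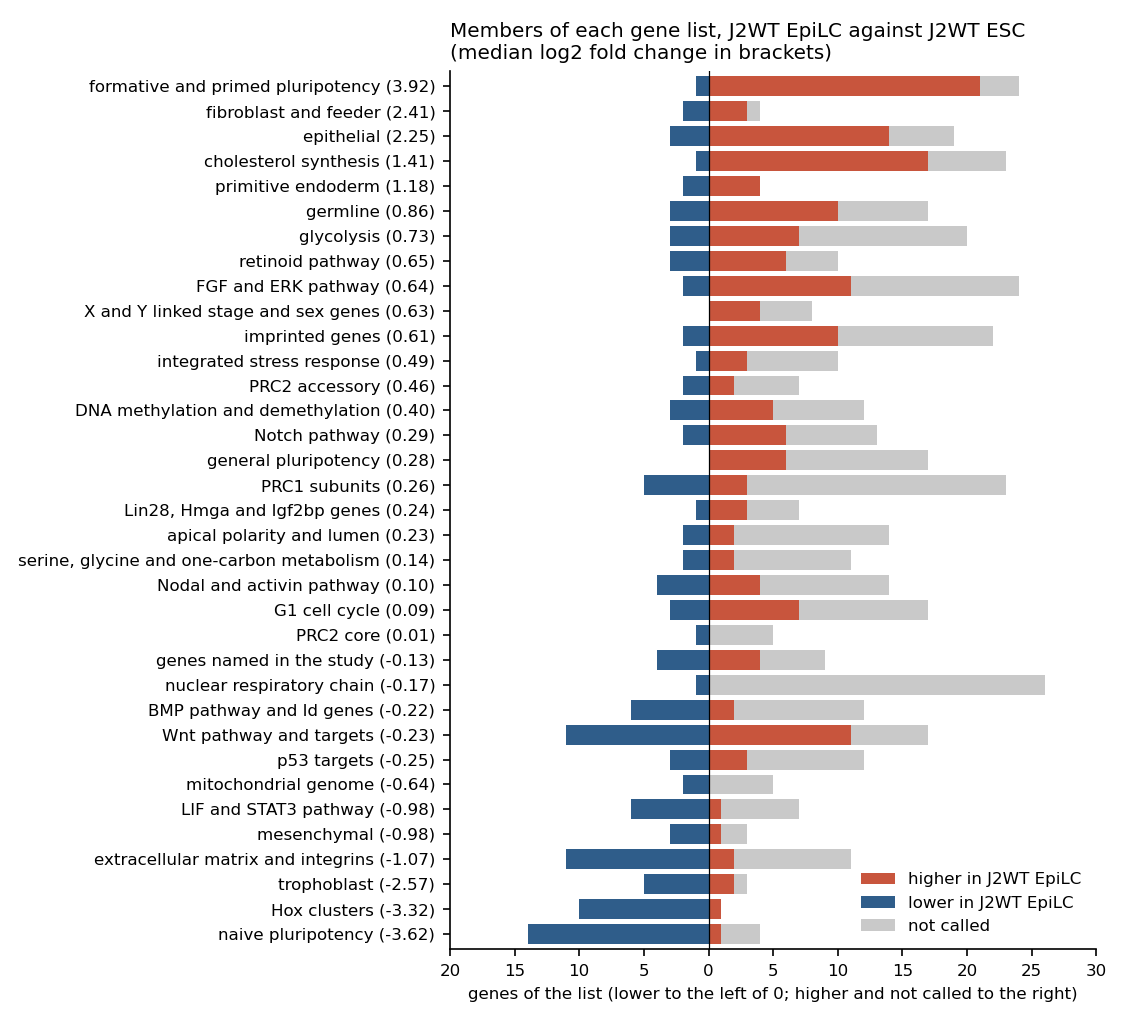
Members called higher (red, right of 0), lower (blue, left of 0) and not called (grey) in each list with at least 5 genes tested; the x axis counts genes and the number beside each name is the median log2 fold change, J2WT EpiLC against J2WT ESC. Formative, epithelial and cholesterol genes lie towards the top, and naive, Hox and matrix genes towards the bottom.

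The labelled cell type was checked against markers of others the culture could hold. The 5 naive markers Klf4, Nanog, Esrrb, Zfp42 and Tfcp2l1 were all lower and the 4 formative markers Fgf5, Otx2, Pou3f1 and Dnmt3b all higher in J2WT EpiLCs. Of 13 streak and mesendoderm genes 3 were tested. T (brachyury) was lower at 0.243, 0.0613 and 0.0638 CPM in J2WT EpiLCs, against 3.17, 3.22 and 3.27 CPM in J2WT ESCs, Kdr fell by 2.08 and Eomes was not called. Of 12 neuroectoderm genes 4 were tested, Pax6 was higher at 1.52, 1.65 and 1.91 CPM in J2WT EpiLCs, against 0.0622, 0.258 and 0.252 CPM in J2WT ESCs and Sox1 was not called at 21.8, 23.6 and 21.7 CPM in J2WT EpiLCs, against 14.1, 15.8 and 14.7 CPM in J2WT ESCs, while Neurog2 had no count. Of 12 primitive endoderm genes 6 were tested, of which 4 were higher and 2 lower. Gata6 stood at 5.72, 6.56 and 5.55 CPM in J2WT EpiLCs, against 1.43, 1.03 and 1.13 CPM in J2WT ESCs, while Gata4, Sox17 and Sox7 were under the count minimum with 73, 50 and 40 counts in J2WT EpiLCs and 17, 9 and 4 in J2WT ESCs. Of 11 trophoblast genes 8 were tested, of which 5 were lower, among them Cdx2 (0.304, 0.429 and 0.191 CPM in J2WT EpiLCs, against 5.97, 4.19 and 6.04 CPM in J2WT ESCs), 2 were higher, among them Hand1 (1.70, 2.51 and 2.74 CPM in J2WT EpiLCs, against 0, 0.193 and 0.377 CPM in J2WT ESCs), and 1 was not called. The 11 genes of 2-cell-like cells were all under the count minimum. Of 12 fibroblast genes 6 were tested, of which 3 were higher, 2 lower and 1 not called. Among those higher, Dcn had 362 counts in J2WT EpiLCs and 3 in J2WT ESCs. Col1a2 stood at 4.38, 3.68 and 3.89 CPM in J2WT EpiLCs, against 0.124, 0.193 and 0.314 CPM in J2WT ESCs. Col1a1 was lower with a log2 fold change of -1.68. Postn and Col3a1 had 1 and 5 counts in J2WT EpiLCs and 2 and 4 in J2WT ESCs. The part of other cell types in the results above was not tested.

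By size, the 15 largest increases included genes of varied function with next to no counts in J2WT ESCs. Beside Bcl11a these were Olfr307, Tmem154, Gbp2, Rasef, H2-Q6, Cdh15, Prss46 and Tmem252, all with no count in J2WT ESCs and at least 70.9-fold to 185-fold higher, and Tmem54, with 1813 counts in J2WT EpiLCs and 1 in J2WT ESCs. Gbp2, an interferon-inducible guanylate-binding protein, had 7.55, 8.15 and 8.03 CPM in J2WT EpiLCs, and Cthrc1, a secreted collagen triple helix protein, had 27.6, 24.8 and 27.8 CPM in J2WT EpiLCs, against 0, 0.0644 and 0.0629 CPM in J2WT ESCs. The 15 largest decreases included Trpm1, a cation channel, with 4 counts in J2WT EpiLCs and 5012 in J2WT ESCs, Hspb7, a small heat shock protein, with 1 in J2WT EpiLCs and 611 in J2WT ESCs, and Mal, Cd180, Htr5a, Slc13a2 and Sgcz, with no count in J2WT EpiLCs and at least 37.7-fold to 58.8-fold lower. Among the genes called higher with the highest CPM were Nasp, a histone chaperone (1250, 1206 and 1244 CPM in J2WT EpiLCs, against 513, 512 and 513 CPM in J2WT ESCs), Odc1, the first enzyme of polyamine synthesis (1276, 1279 and 1286 CPM in J2WT EpiLCs, against 402, 405 and 408 CPM in J2WT ESCs), and Hells, a chromatin remodeller that aids DNA methylation (971, 971 and 978 CPM in J2WT EpiLCs, against 439.8, 411 and 406 CPM in J2WT ESCs). Txnrd1, Slc38a2 and Pa2g4 rose by 1.77, 2.32 and 1.08. Among those called lower were Dppa5a, an RNA-binding protein of ESCs (665, 645 and 686 CPM in J2WT EpiLCs, against 1290, 1378 and 1468 CPM in J2WT ESCs, not called under upper-quartile scaling at -0.93 or without J2WT ESC replicate 3 at -0.99), Bcat1, a branched-chain aminotransferase (375, 389.9 and 399 CPM in J2WT EpiLCs, against 1188, 1197 and 1156 CPM in J2WT ESCs), and Ckb, brain-type creatine kinase (25.9, 25.1 and 25.6 CPM in J2WT EpiLCs, against 1184, 1256 and 1272 CPM in J2WT ESCs). By chromosome, the X held 118 genes higher and 71 lower of 496 tested, beside 15.2% higher and 15% lower over all genes tested. Of 18 genes the study names, 13 were tested, of which 4 were higher, 4 lower and 5 not called. The list was chosen by the study on these cells and is no independent evidence of direction.

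The stage change of J2WT was then set against that of PclWT, the wild-type line of the other origin, by a contrast of the changes in 1 edgeR fit of 12 libraries. PclWT libraries held 8281855 to 9647838 gene counts, fewer than those of J2WT, so line and depth cannot be told apart in the counts of calls. PclWT EpiLC replicate 1 stood apart from the other replicates. When it was left out, 2657 of the 2903 genes called next kept their call and direction. Of 13523 genes tested, the change differed in 2903 (21.5%): 1425 (10.5%) had a higher log2 change in J2WT and 1478 (10.9%) a lower one. Of the 2903, 1521 had the same sign with the larger size in J2WT, 181 the same sign with the smaller size in J2WT, and 1201 opposite signs. In 75 genes both lines were called, in opposite directions. Of 25 formative genes, 21 had a higher contrast and 1 a lower one, with medians of 3.92 in J2WT and 1.29 in PclWT. Pou3f1 reached 551, 554 and 566 CPM in J2WT EpiLCs and 166, 103 and 97.9 CPM in PclWT EpiLCs. Its change was 5.32 ± 0.29 larger in J2WT on the log2 scale (SE; edgeR adjusted p = 1.8e-07). The change of Dnmt3a differed by 3.29 ± 0.14 (SE; edgeR adjusted p = 3.2e-08). Dnmt3a had 387, 503 and 487 CPM in PclWT EpiLCs and 196, 197 and 209.7 CPM in PclWT ESCs. Both genes were therefore higher in J2WT EpiLCs than in any PclWT EpiLC library. A contrast takes in the ESC levels of both lines as well. Dnmt3a was lower in every J2WT ESC library than in any PclWT ESC library, so its contrast holds differences at both stages. Naive genes differed less in their medians (-3.63 in J2WT and -3.12 in PclWT), with 3 of 18 contrasts higher and 6 lower.

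Contrasts of single genes from the pathways above follow. Sp5 was lower in both lines, but PclWT libraries held only 1.64, 1.23 and 0.9995 CPM in EpiLCs and 3.97, 3.95 and 5.002 CPM in ESCs, and the contrast was -8.58 (adjusted p = 4.0e-07, edgeR). The size of this contrast is uncertain, since the J2WT EpiLC libraries held 2 counts of Sp5. Slc16a3 and Ldha had contrasts of 3.45 and 2.34, with Ldha at 524, 371 and 336 CPM in PclWT EpiLCs and 810.4, 769.9 and 722 CPM in PclWT ESCs. Cholesterol genes had medians of 1.40 in J2WT and 1.65 in PclWT, and 3 of 24 contrasts were called. Xist, H19 and Gata6 had contrasts of 3.33, 4.57 and 2.94, and Plagl1, T and Socs3 of -3.43, -3.14 and -1.98. Fgf17, an FGF ligand, moved in opposite directions: it had a log2 fold change of 3.03 in J2WT and -4.23 in PclWT. Genes near recruited sites had medians of -1.85 in J2WT and -0.93 in PclWT, with 17 of 345 contrasts higher and 156 lower, and genes near displaced sites had medians of 3.72 in J2WT and 1.61 in PclWT, with 52 of 75 contrasts higher. None was called lower by edgeR or DESeq2, with 1 lower at an unadjusted p under 0.05 in edgeR.

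Set against libraries labelled J2KO, from the Jarid2-null line of the same origin, the change in J2WT differed in 1576 of 13929 genes (11.3%), 740 with a higher (5.31%) and 836 with a lower (6.00%) log2 change in J2WT. The Jarid2 transcript was at 766, 773 and 765 CPM in J2WT EpiLCs and 502, 511 and 508 CPM in EpiLC libraries labelled J2KO, and at 466, 459 and 443 CPM in J2WT ESCs and 409, 412 and 411 CPM in ESC libraries labelled J2KO. Counts over the whole gene therefore did not check the deletion. Of the 1576, 803 had the same sign with the larger size in J2WT, 319 the same sign with the smaller size, and 454 opposite signs. Formative genes had medians of 3.93 in J2WT and 2.44 in libraries labelled J2KO, with 8 of 25 contrasts higher and 3 lower. Pou3f1 had a contrast of 2.26 ± 0.16 (SE; edgeR adjusted p = 2.4e-13) and Dnmt3b of -1.36 ± 0.04 (edgeR adjusted p = 3.1e-21), in opposite directions. Sox1, a neural gene, was at 21.8, 23.6 and 21.7 CPM in J2WT EpiLCs and 5.95, 5.34 and 5.36 CPM in EpiLC libraries labelled J2KO, and its contrast was 2.53. Prom1 and Igsf10 had contrasts of 4.42 and 4.41, and Cdx2 of -4.48. Tie1, an endothelial receptor, had a log2 fold change of -1.95 in J2WT and 3.89 in libraries labelled J2KO. Genes near recruited sites had medians of -1.87 in J2WT and -1.42 in libraries labelled J2KO (14 of 358 contrasts higher and 78 lower). Glycolytic genes had medians of 0.73 in J2WT and 0.78 in libraries labelled J2KO, and LIF pathway genes of -0.97 in both. Each contrast uses the same J2WT libraries, so the comparisons with PclWT and with J2KO share them.

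**Figure D5:**
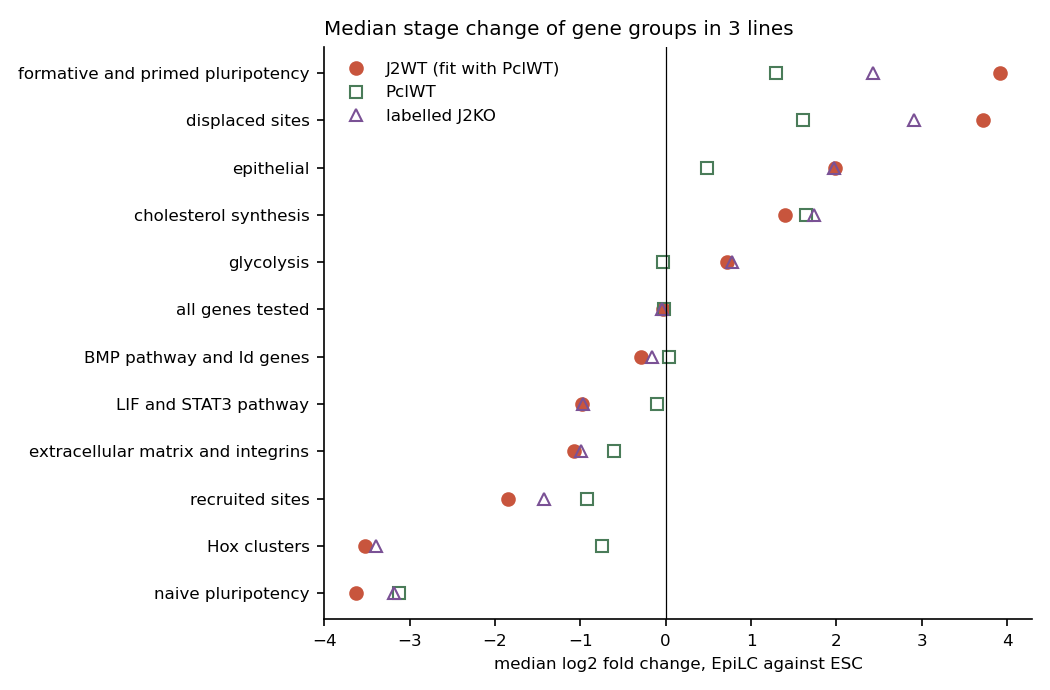
Median log2 fold change of EpiLCs against ESCs (x axis) for gene groups in J2WT (filled circles), PclWT (open squares) and libraries labelled J2KO (open triangles). Formative genes have the largest median in J2WT at 3.92, against 1.29 in PclWT and 2.44 in libraries labelled J2KO, while cholesterol medians lie close together at 1.40, 1.65 and 1.74.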

How the data were processed

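Poly(A) RNA from 3 J2WT EpiLC and 3 J2WT ESC libraries was prepared with a kit that does not mark strand, and the authors aligned reads to GRCm38 with STAR, whose gene counts (Ensembl 101) they deposited as raw counts per gene. Column 2, unstranded counts, was used, and the 4 summary lines (25.8% to 26.7% of reads fell in no single gene) were left out. Genes with a mean normalised count of at least 15 were tested with edgeR 4.0.16 (R 4.3.3; TMM, quasi-likelihood test, Benjamini-Hochberg adjustment) on the 6 libraries, and contrasts of stage changes on 12 libraries each. CPM were scaled over 18 libraries, RPKM by the exon union of GENCODE M21, and error bars are SE of the fit or SD over libraries. Intervals of count ratios are exact binomial and cover counting error only, as does the floor of 3 counts.

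Members and gene lists were chosen with earlier results of these data known. The text names list members, the 15 called genes with the largest changes and the 10 with the highest CPM in each direction, the 5 largest changes of each site class and the 10 largest contrasts, without clone names and pseudogenes, and only part of these are printed. Some members that entered the counts, medians and sums of the lists are not reported here by name and are not drawn. Recruited and displaced sites are those of the study, whose class of maintained sites was held only in part (1998 sites). Genes near sites of different classes were left out, and the maintained sites held were used in that step and in the ranking of names. Genes near maintained sites that were not held could not be left out. No counts of the maintained class are given. Of promoters, RefSeq entries of GRCm38.p6 were matched by symbol. Tests were checked on simulated counts, where 98.98% of genes with a log2 fold change of 1.5 were recovered in J2WT, 92.86% in the contrast with PclWT and 97.96% in the contrast with J2KO. The simulation gave all genes the same dispersion and had no library that stood apart, as PclWT EpiLC replicate 1 did. Its rates therefore hold for that setting only. Alternatives tried were DESeq2 1.42.0, other scalings, filters and strand columns, a stricter test, a replicate block and leaving out each library.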

Additional observations from a re-analysis of the deposited data

Results flagged for a closer look

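The stage change differed between J2WT and PclWT, by the edgeR test of the contrast, in 2903 genes, and between J2WT and libraries labelled J2KO in 1576 genes. Values are log2 changes in J2WT minus those in the other line. Against PclWT they were 5.32 for Pou3f1, 1.93 for Otx2, 3.29 for Dnmt3a, 1.11 for Dnmt3b, 2.04 for Lin28a, 2.34 for Ldha, 3.45 for Slc16a3, 3.33 for Xist, 4.57 for H19, 2.94 for Gata6 and 1.18 for Jarid2. Among genes with larger contrasts they were 8.64 for Tmem54, 8.54 for Neurog1 (a proneural factor), 7.26 for Fgf17, 3.96 for Prom1 and 3.07 for Igsf10. The change was lower in J2WT by the contrast for Sp5 (-8.58), Aqp3 (-6.01), Cdx2 (-3.47), Plagl1 (-3.43), T (-3.14), Socs3 (-1.98) and Sox1 (-1.67). Tmem54 had 1 count over the J2WT ESC libraries and Sp5 2 over the J2WT EpiLC libraries, so the sizes of their contrasts are uncertain.

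Against libraries labelled J2KO the contrast was 2.26 for Pou3f1, 2.53 for Sox1, 2.22 for Gata6, 1.28 for Xist, 1.23 for Fgf17, 4.42 for Prom1 and 4.41 for Igsf10. It was -1.36 for Dnmt3b, -1.53 for Plagl1, -3.06 for T, -2.38 for Aqp3, -4.48 for Cdx2 and -5.83 for Tie1. Sox1 thus had a contrast of -1.67 with PclWT and of 2.53 with libraries labelled J2KO, at log2 fold changes of 0.61 in J2WT, 2.27 in PclWT and -1.93 in libraries labelled J2KO. The contrast of Otx2 with PclWT had an edgeR adjusted p of 0.039. Otx2 stood at 3.50, 3.58 and 3.10 CPM in PclWT EpiLCs and 0, 0.214 and 0.445 CPM in PclWT ESCs, and without PclWT ESC replicate 3 the contrast was 0.95 and no longer called (edgeR adjusted p = 0.59). It also lost its call without J2WT ESC replicate 2 or 3, any of the J2WT EpiLC libraries, PclWT ESC replicate 2 or PclWT EpiLC replicate 3 (edgeR adjusted p between 0.053 and 0.11).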

How the results depend on the processing

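No named gene or contrast that was called, in the main fit or in an alternative, changed direction between them. Changes of sign where neither setting called the gene were not counted. Over all genes called, 2 were called the other way in strand column 3 and 1 in strand column 4. Of the 4192 genes called, 4167 kept their call and direction under DESeq2's size factors in edgeR, 4165 under DESeq2 and 3951 under upper-quartile scaling, which gave 2349 genes higher and 1840 lower, with a median log2 fold change of 0.09 over all genes tested, against -0.02 with TMM. Without a count filter 3653 genes were higher and 3183 lower, since more genes were tested, and with a minimum of 50 there were 1373 higher and 1544 lower. Testing against a 2-fold change left 1754 higher and 1686 lower. Leaving out each library in turn gave 1978 to 2205 higher and 2020 to 2197 lower genes, 154 to 162 list members higher and 111 to 120 lower, 270 to 277 genes near recruited sites lower and 3 to 5 higher, and 67 to 69 genes near displaced sites higher. It gave 1308 to 1539 higher and 1369 to 1608 lower contrasts with PclWT, and 675 to 778 higher and 798 to 905 lower contrasts with J2KO. With the transcription start inside the site, 256 of 333 genes near recruited sites were lower and 65 of 70 near displaced sites higher.

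Replicate numbers did not pair J2WT libraries: deviations of same-numbered libraries correlated across genes at -0.06, -0.04 and -0.01. With the replicate block, 2113 genes were higher and 2081 lower. For the contrasts it gave 1442 higher and 1449 lower with PclWT, whose libraries correlated at 0.48, 0.26 and 0.22 with the same number but also at 0.21 and 0.27 between EpiLC replicate 2 and ESC replicate 3 and between EpiLC replicate 3 and ESC replicate 2, and 738 and 833 with J2KO. It removed the contrast of Otx2 with PclWT (edgeR adjusted p = 0.091), as did fitting with no count filter (0.061), and moved no other named call.

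Some named calls near the threshold moved under upper-quartile scaling (given beside the genes, and St14 at -0.92) or in a strand column (Esrp2 and Nsmaf, given above, and Pfkm at 0.99 and Dppa4 at 1.00 in column 3). Others moved when a library was left out. Beside genes named above these were Amn (-0.89 to -0.97), Pdgfra without J2WT EpiLC replicate 2 (0.92), Rb1 without J2WT ESC replicate 3 (0.98; 0.63 in strand column 3 and 0.78 in column 4), and, newly called, 7 genes such as Id2 without J2WT EpiLC replicate 1 (-1.12). Counts of small lists moved with single genes that crossed the threshold or the count minimum. Without any 1 of the J2WT EpiLC libraries, 1 BMP gene, 1 trophoblast gene and 0 neuroectoderm genes were higher; the primitive endoderm list had 1 lower gene without J2WT EpiLC replicate 2 or J2WT ESC replicate 2 or 3; and the mitochondrial genome list had 0 or 1. Without J2WT ESC replicate 1 the respiratory chain had 2 lower genes, and without J2WT ESC replicate 2 the mesenchymal list 2 higher. In the contrasts, Neurog1 lost its call without J2WT EpiLC replicate 1 (edgeR adjusted p = 0.083), Igsf10 without J2WT ESC replicate 2 or 3, J2WT EpiLC replicate 1 or 3, PclWT ESC replicate 2 or 3 or PclWT EpiLC replicate 2 (0.062 to 0.11), Dnmt3b without PclWT EpiLC replicate 1 (0.96) and T, against J2KO, without J2KO EpiLC replicate 2 (0.09). Depth limited genes under the count minimum, 17371 with a count, for which no difference was testable.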

Other observations

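Gene families outside the lists were grouped by symbol after the values had been seen, so their counts are descriptions. Of 14 genes of the major histocompatibility complex tested, 9 were higher in J2WT EpiLCs, 3 lower and 2 not called, against 15.2% higher and 15% lower over all genes. Class I genes, which present peptides on the surface of most cells, included H2-K1 at 78.1 ± 1.86 CPM in J2WT EpiLCs, against 7.54 ± 0.67 CPM in J2WT ESCs (SD, n = 3 each), a log2 fold change of 3.38, H2-D1 at 1.23 and H2-Q4 at 4.25. H2-M5, which the symbol also places in class I, was lower with a log2 fold change of -2.22. Among class II genes H2-Eb1 had 2.23 ± 0.34 CPM in J2WT EpiLCs, against 47.2 ± 1.72 CPM in J2WT ESCs, and H2-Ab1 a log2 fold change of -2.44, while H2-DMa and H2-DMb1 were not called (0.69 and -0.998). Ciita, the transactivator of class II genes, had 0.0608, 0.306 and 0.255 CPM in J2WT EpiLCs, against 7.03, 5.86 and 6.73 CPM in J2WT ESCs. H2 genes are near-identical copies, among which the counting of uniquely mapped reads can split or lose reads, so values of single members are uncertain.

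Of 8 cathepsins, the proteases of the lysosome, 5 were lower and 3 not called, with Ctsc at 17.6 ± 0.85 CPM in J2WT EpiLCs, against 137 ± 1.19 CPM in J2WT ESCs and Ctsa, Ctsl and Ctsb at log2 fold changes of -2.29, -1.77 and -1.67. Of 20 subunits of the vacuolar proton pump, 4 were lower and 16 not called (median -0.60), beside 15% lower over all genes tested. Of 13 protocadherins, adhesion molecules of clustered and single genes, 11 were lower, 1 was not called and Pcdh1 was higher at 176 ± 7.09 CPM in J2WT EpiLCs, against 4.71 ± 0.80 CPM in J2WT ESCs. Clustered protocadherins share their last exons, so reads cannot always be given to a single one. Housekeeping families stood close to the centre: of 94 cytosolic ribosomal protein genes 2 were higher, 1 lower and 91 not called (median -0.11), of 77 mitochondrial ribosomal protein genes 1 was higher and 76 not called, and the 6 Mcm helicase and 8 Cct chaperonin genes were not called.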
